A study of Mus musculus with 24 samples.

Results

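The 7 genes described here encode receptors of the chemokine and chemerin systems, which steer leukocytes along gradients: Cxcr6, Cxcr3, Cxcr4, Ccr6, Ccr1, Ccrl2 and Cmklr1. They were chosen by symbol, and all 7 were found among the 45792 genes of the deposited tables. The 7 genes and the gene lists below were chosen with earlier results of these data known. Their counts beside the shares of all tested genes are therefore descriptions. All 7 were among the 14227 genes tested, those whose log2 values averaged 4 or more across the 12 libraries. RNA was measured in CD11c+ MHC class II+ cells sorted from livers of female C57BL/6 mice. Every mouse had been fed a diet lacking methionine and choline for 2 weeks, which produces steatohepatitis, and had been given liposomes labelled with the membrane dye DiI by vein 24 hours before the sort. The 4 groups, of 3 libraries each, were DiI-positive cells after curcumin-loaded liposomes, DiI-positive cells after empty liposomes, DiI-negative cells after curcumin-loaded liposomes and DiI-negative cells after empty liposomes. Curcumin is a plant polyphenol, and a DiI-positive cell is one that carried liposome dye when it was sorted. No group of mice on a normal diet or without liposomes was analysed here. The labels do not say whether libraries of 1 group stand for different mice or for pooled mice, so every p-value below measures the spread between libraries, part of which may be technical.

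Chemokine receptors are seven-pass membrane proteins coupled to inhibitory G proteins, and binding of a small secreted chemokine sends the cell up the gradient of that chemokine. In the liver they hold or recruit T cells, natural killer (NK) cells, innate lymphoid cells, monocytes and dendritic cells. CXCR6 binds CXCL16, a chemokine displayed on sinusoidal endothelium, and is carried by liver-resident NK T cells, type 1 innate lymphoid cells (ILC1) and resident T cells. CXCR3 binds the interferon-induced chemokines CXCL9 and CXCL10, CXCR4 binds CXCL12, CCR6 binds CCL20, and CCR1 binds several inflammatory CC chemokines such as CCL3 and CCL5. CMKLR1 is the signalling receptor for chemerin, the product of Rarres2, and CCRL2 binds chemerin without signalling and presents it to CMKLR1 on other cells.

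The labelled cell type was checked first against the genes of the sorting gate. Itgax, which encodes CD11c, averaged 12.67 in DiI-positive libraries and 13.19 in DiI-negative libraries on the deposited log2 scale. H2-Ab1, a chain of MHC class II, averaged 17.85 in DiI-positive libraries and 18.07 in DiI-negative libraries. Transcripts of other cell types were also present, and their levels moved with the gate. Each summed level adds unlogged values, so the most abundant transcripts of a list weigh most in it. The summed level of 9 NK and ILC1 transcripts ran from 11.53 to 12.39 in DiI-positive libraries and from 13.18 to 13.89 in DiI-negative libraries. The summed level of 7 Kupffer cell transcripts ran from 14.92 to 16.95 in DiI-positive libraries and from 12.62 to 13.42 in DiI-negative libraries. The summed level of 7 B cell transcripts ran from 15.46 to 16.70 in DiI-positive libraries and from 14.59 to 15.40 in DiI-negative libraries. The third curcumin library of each gate stood apart in several of these levels. The cDC1 level (8 transcripts of type 1 conventional dendritic cells) was 15.20 in the DiI-positive one, against at most 14.45 in the other 5 DiI-positive libraries, and 15.69 in the DiI-negative one, against at most 14.77 in the other 5 DiI-negative libraries. The B cell level was the lowest of its gate in both, at 15.46 and 14.59. The level of 4 sinusoidal endothelial transcripts was 13.43 in the DiI-positive one, against at most 10.43 in the other DiI-positive libraries. Siglech, a transcript of plasmacytoid dendritic cells, was at 11.28 in the DiI-positive one and at 11.48 in the DiI-negative one, above every other library. The main differences of the receptors and the counts of the gene lists between the gates are therefore also given without these libraries. Deposited values of any pair of libraries correlated with r from 0.9735 to 0.9942 over the tested genes. Read numbers per library are not given in the values, so depth is unknown.

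The start regions of 3 receptor genes are printed here. Cxcr6 and Cxcr3 were taken because they fell in DiI-positive cells. Ccrl2 was taken because Nfkbia, which encodes an inhibitor of NF-kappaB, was among the 3 genes most like it within both gates. Those were picked from 10096 genes, and over all 12 libraries r of Ccrl2 with Nfkbia was 0.29. Each sequence is the RefSeq window of 250 bases before to 50 bases after the start site on build GRCm38.p6, written 5′ to 3′ on the strand of the gene. The Cxcr6 window is chr9:123806227-123806526 on the plus strand, the Cxcr3 window is chrX:101734098-101734397 on the minus strand, and the Ccrl2 window is chr9:111057469-111057768 on the minus strand, the first of 3 windows listed for that gene. Capitals mark the RUNX core TGTGGT or its reverse complement ACCACA, the ETS core AGGAAG or its reverse complement CTTCCT, and the kappaB motif GGACTTTCC. The T-box core GGTGTG (reverse complement CACACC) was searched as well, and it is not in these 3 windows. The motifs were chosen after the sequences had been seen.
Cxcr6: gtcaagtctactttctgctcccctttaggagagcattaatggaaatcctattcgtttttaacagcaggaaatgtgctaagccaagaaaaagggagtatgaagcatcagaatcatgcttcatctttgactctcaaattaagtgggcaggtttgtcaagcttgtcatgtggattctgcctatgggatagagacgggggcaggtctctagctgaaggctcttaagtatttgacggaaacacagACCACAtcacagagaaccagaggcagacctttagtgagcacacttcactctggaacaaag
Cxcr3: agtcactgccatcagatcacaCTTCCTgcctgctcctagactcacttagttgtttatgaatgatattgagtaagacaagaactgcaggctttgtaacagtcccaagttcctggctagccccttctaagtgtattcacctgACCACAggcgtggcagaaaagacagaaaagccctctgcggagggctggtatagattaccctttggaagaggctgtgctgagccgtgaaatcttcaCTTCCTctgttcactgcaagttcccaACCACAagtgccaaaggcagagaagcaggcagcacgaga
Ccrl2: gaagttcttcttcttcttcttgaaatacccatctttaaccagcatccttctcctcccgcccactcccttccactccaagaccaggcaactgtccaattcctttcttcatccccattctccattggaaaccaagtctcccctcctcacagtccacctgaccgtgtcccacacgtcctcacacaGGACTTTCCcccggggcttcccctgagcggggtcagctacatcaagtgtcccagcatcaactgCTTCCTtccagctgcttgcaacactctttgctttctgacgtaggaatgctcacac

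In the Cxcr6 window the RUNX core lies on the reverse strand 10 bases upstream of the start site. In the Cxcr3 window it lies 110 bases upstream and 11 bases downstream, and the ETS core lies 229 and 15 bases upstream. In the first Ccrl2 window the kappaB motif begins 68 bases upstream and the ETS core 5 bases upstream. Over the 10 windows of the 7 genes, the RUNX core was found in windows of Ccr1, Ccr6, Cxcr3 and Cxcr6, against 16.8% of all 32851 windows. The ETS core was found in windows of Ccr6, Ccrl2, Cmklr1 and Cxcr3, against 35.4% of all windows. The T-box core was found in windows of Ccrl2 and Cmklr1, against 19% of all windows. The kappaB motif was found in windows of 1 of the 7 genes, Ccrl2, against 0.344% of all windows. These shares are per window, whereas a gene was counted if any of its windows held a match, so the 2 are not like for like. The T-box core of Ccrl2 is the same site in 2 overlapping windows. None of these matches is evidence that a factor binds there. The motifs were chosen with the sequences in view, so a count above the share of all windows does not show enrichment.

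The 7 receptors lay at different heights in these cells. Levels of different genes are compared per kilobase of exon, as the mean log2 value over the 12 libraries less the log2 of the exonic length in kilobases. On that scale Ccr1 was at 9.49, Ccrl2 at 9.03, Cxcr3 at 8.46, Cxcr6 at 8.42, Ccr6 and Cxcr4 both at 6.65 and Cmklr1 at 5.24. Cxcr3 and Cxcr6 thus lay side by side, as did Ccr6 and Cxcr4. Before scaling by length, the mean log2 values were 10.99 for Ccr1, 10.41 for Ccrl2, 9.36 for Cxcr6, 9.26 for Cxcr3, 7.86 for Ccr6, 7.50 for Cxcr4 and 7.01 for Cmklr1. The mean of Ccr1 was above that of 83.5% of tested genes, and the mean of Cmklr1 above that of 28.7%. Libraries of 1 group varied most for Ccr6, with a pooled within-group SD of 0.55 log2 units where genes of like mean had a median SD of 0.25, and 94.9% of those genes varied less. Cxcr3 had a pooled SD of 0.46 against a median of 0.23 for genes of like mean. Cxcr4 had a pooled SD of 0.17 against a median of 0.25, so its libraries lay closer together than those of most genes of its level.

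**Figure D1:**
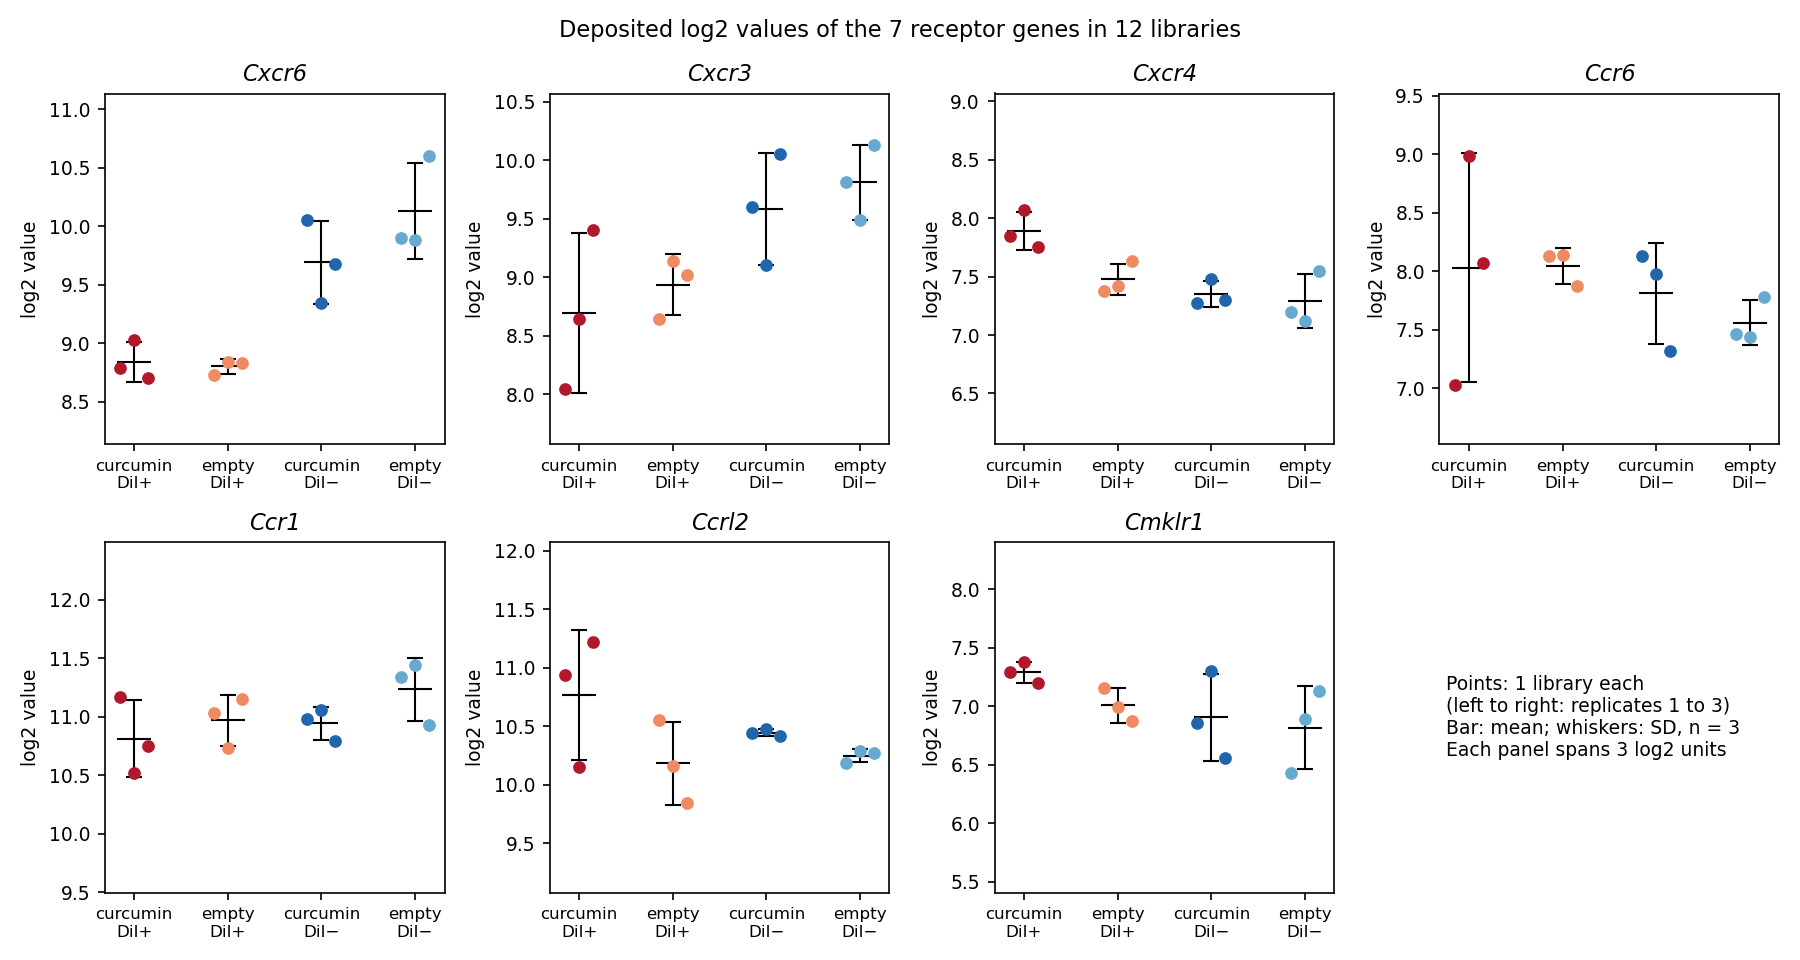
Deposited log2 values (vertical axes, each spanning 3 log2 units) of the 7 receptor genes in the 12 libraries, by group (horizontal axes); points are libraries, bars are means and whiskers SD with n = 3. All 6 DiI-positive libraries lie at or below 9.03 for Cxcr6 and all 6 DiI-negative libraries at or above 9.34, whereas the groups overlap for Ccr1 and the spread within curcumin DiI-positive libraries is widest for Ccr6.

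The first comparison was of cells with liposome dye against cells without it. Cxcr6 was lower in DiI-positive cells in every library. In DiI-positive cells its log2 values were 8.79, 9.03 and 8.70 after curcumin liposomes and 8.73, 8.84 and 8.83 after empty liposomes. In DiI-negative cells they were 10.05, 9.34 and 9.68 after curcumin liposomes and 9.90, 9.88 and 10.60 after empty liposomes. No DiI-positive library reached the lowest DiI-negative one. Ordered by level, empty DiI-negative libraries came first and overlapped curcumin DiI-negative ones, and the 2 DiI-positive groups overlapped each other below them. After curcumin liposomes, Cxcr6 averaged 8.84 ± 0.17 in DiI-positive cells and 9.69 ± 0.36 in DiI-negative cells (SD, n = 3 each). That log2 difference of -0.85 (SE 0.22, 95% interval -1.33 to -0.38) did not pass, with a limma adjusted p of 0.058, in a comparison where 3.07% of tested genes passed. After empty liposomes it averaged 8.80 ± 0.061 in DiI-positive cells and 10.13 ± 0.41 in DiI-negative cells (SD, n = 3 each). There it fell by 1.33 on the log2 scale (SE 0.22, 95% interval -1.80 to -0.86, limma adjusted p = 0.011), where 2.95% of tested genes passed. Over both liposomes, weighted equally, Cxcr6 fell by 1.09 (SE 0.15, 95% interval -1.43 to -0.76, limma adjusted p = 0.0013), where 12.1% of tested genes passed. The gate difference of Cxcr6 was 0.48 higher after curcumin than after empty liposomes (SE 0.31, 95% interval -0.19 to 1.15), and this difference of differences did not pass the test. Without the third curcumin libraries, Cxcr6 fell by 1.06 over both liposomes (limma adjusted p = 0.0052). The after-curcumin difference was -0.79 without them (limma adjusted p = 0.15). When 1 library was left out it ran from -1.03 to -0.67, with adjusted p-values from 0.035 to 0.2. It passed in 2 of these 12 fits, without curcumin DiI-negative replicate 2 (-1.03, adjusted p = 0.046) and without empty DiI-negative replicate 3 (-0.85, adjusted p = 0.035). The library left out in the latter fit is outside this comparison, so only the pooled spread changed.

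Cxcr6 lies at 9:123806475-123811760 on the plus strand, inside Fyco1, which is on the opposite strand, and the exons of the annotated genes share 0 bases. Fyco1 itself differed by 0.25 over both liposomes, in the other direction (limma adjusted p = 0.27). The strandedness of the counting is not given in the sources used here, so reads from introns of Fyco1 could not be separated from Cxcr6 by strand.

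Transcripts that mark NK cells and ILC1 differed between the gates in the same direction as Cxcr6. Over both liposomes, 8 of the 9 listed genes fell in DiI-positive cells and 0 rose, where 6.56% of tested genes fell and 5.54% rose. The list median was -1.52 beside 0.005 for all tested genes. Il2rb, a receptor chain for interleukins 2 and 15, averaged 9.81 in DiI-positive cells and 11.64 in DiI-negative cells. Ncr1, the NK receptor NKp46, averaged 9.30 in DiI-positive cells and 10.94 in DiI-negative cells. Tbx21, the transcription factor T-bet, averaged 8.48 in DiI-positive cells and 9.69 in DiI-negative cells. Prf1, which encodes perforin, was the 1 listed gene that did not pass, with a difference of -1.12 and a limma adjusted p of 0.079. Listed T cell transcripts moved less, with 1 of 8 lower over both liposomes, where 6.56% of tested genes were. Their summed levels were 10.26 to 11.00 in DiI-positive libraries and 10.57 to 11.26 in DiI-negative libraries. Within the gates Cxcr6 did not follow the summed NK and ILC1 level in 1 direction. The r was -0.51 over the 6 DiI-positive libraries and 0.49 over the 6 DiI-negative libraries. Cxcr6 spanned only 8.70 to 9.03 in the DiI-positive ones, and with 6 libraries a gate both r are imprecise. The part of NK cells or ILC1 in the Cxcr6 difference was not tested. In RNA from sorted cells, fewer cells of a type and less RNA per cell cannot be told apart.

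Cxcr3 followed Cxcr6 in direction, with more spread. In DiI-positive cells its log2 values were 8.04, 8.64 and 9.40 after curcumin liposomes and 8.64, 9.14 and 9.02 after empty liposomes. In DiI-negative cells they were 9.60, 9.10 and 10.05 after curcumin liposomes and 9.81, 9.49 and 10.13 after empty liposomes. After curcumin liposomes the third DiI-positive library lay above the lowest DiI-negative one, and after empty liposomes every DiI-positive library lay below every DiI-negative one. The gate difference was -0.90 after curcumin liposomes (SE 0.33, 95% interval -1.62 to -0.17, limma adjusted p = 0.17) and -0.88 after empty liposomes (SE 0.33, 95% interval -1.60 to -0.16, limma adjusted p = 0.18), and neither passed alone. Over both liposomes Cxcr3 fell by 0.89 (SE 0.23, 95% interval -1.40 to -0.38, limma adjusted p = 0.03). The summed NK and ILC1 level had r = 0.36 with Cxcr3 over the 6 DiI-positive and r = 0.28 over the 6 DiI-negative libraries. Over the levels of the 10 cell type lists set against it, r ran from -0.72 for monocyte to 0.81 for cDC2 transcripts over the DiI-positive libraries, and from -0.61 for cDC2 to 0.79 for Kupffer cell transcripts over the DiI-negative ones. The lists with r above 0.5 in both gates were cDC1 (0.71 over the DiI-positive and 0.63 over the DiI-negative libraries) and Kupffer cell transcripts (0.54 and 0.79, in the same order of gates). In the cDC1 level Irf8 and Wdfy4 weigh most, averaging 13.48 and 13.19 over the 12 libraries, whereas Xcr1 averaged 8.77 and Clec9a 8.60. The third curcumin libraries have the highest cDC1 level of each gate, and Cxcr3 was high in them too. Without them r was 0.74 and 0.70 for cDC1, and 0.22 and 0.90 for Kupffer cell transcripts, over 5 libraries a gate. Of the 8 cDC1 genes, 1 rose and 1 fell over both liposomes, where 5.54% of tested genes rose and 6.56% fell. Without the third curcumin libraries 0 rose and 4 fell, where 834 of 14227 tested genes rose and 1081 fell. The part of these cell types in the Cxcr3 difference was not tested.

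The Cxcr3 call over both liposomes depended on single libraries. Leaving out any 1 of 7 libraries brought the adjusted p to the threshold or above it: 0.062 without curcumin DiI-positive replicate 2, 0.067 without empty DiI-positive replicate 1, 0.05 without empty DiI-positive replicate 3, 0.064 without curcumin DiI-negative replicate 1, 0.066 without curcumin DiI-negative replicate 3, 0.064 without empty DiI-negative replicate 1 and 0.071 without empty DiI-negative replicate 3. The difference stayed between -1.06 and -0.72 in all settings. Without the third curcumin library of both gates, Cxcr3 fell by 0.95 (limma adjusted p = 0.0097). Without curcumin DiI-positive replicate 3 alone, the difference after curcumin liposomes was -1.25 and passed (limma adjusted p = 0.031).

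Cxcr4, the CXCL12 receptor, lay the other way. In DiI-positive cells its log2 values were 7.85, 8.07 and 7.75 after curcumin liposomes and 7.38, 7.42 and 7.63 after empty liposomes. In DiI-negative cells they were 7.27, 7.48 and 7.30 after curcumin liposomes and 7.20, 7.12 and 7.55 after empty liposomes. The 3 curcumin DiI-positive libraries were the highest of the 12, and the other 3 groups overlapped. The gate difference was 0.54 after curcumin liposomes (SE 0.15, 95% interval 0.20 to 0.88, limma adjusted p = 0.084) and 0.19 after empty liposomes (SE 0.15, 95% interval -0.15 to 0.52, limma adjusted p = 0.59). Over both liposomes it was 0.36 (SE 0.11, 95% interval 0.12 to 0.60), just short of the threshold with a limma adjusted p of 0.051. Without the third curcumin libraries it was 0.59 after curcumin liposomes (adjusted p = 0.13) and 0.39 over both (adjusted p = 0.081). The difference over both passed without curcumin DiI-positive replicate 3 alone (0.40, adjusted p = 0.04) and without empty DiI-negative replicate 3 (0.43, adjusted p = 0.032). The difference between the 2 gate differences was 0.35 (SE 0.22, 95% interval -0.12 to 0.83) and did not pass.

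A summed level of 4 hepatocyte transcripts moved with Cxcr4 from library to library. The summed level of Alb, Apoa1, Ttr and Serpina1c was 10.07, 10.04 and 9.36 in curcumin DiI-positive libraries and 8.83, 8.93 and 9.51 in empty DiI-positive libraries. It was 8.75, 9.15 and 8.77 in curcumin DiI-negative libraries and 8.29, 8.46 and 9.20 in empty DiI-negative libraries. Cxcr4 followed this level with r = 0.93 over the 6 DiI-positive and r = 0.94 over the 6 DiI-negative libraries. Alb made up most of this level in every library, at 8.04 to 9.73 in the DiI-positive ones. Alb was also the gene most like Cxcr4 within both gates (r = 0.91 and 0.95), picked from 10096 genes. The r of the summed level therefore largely repeats that of Alb. Of the 4 listed genes, 0 passed the test over both liposomes, where 12.1% of tested genes did. The difference of Alb, which encodes albumin, was 0.79 (limma adjusted p = 0.062). Without the third curcumin libraries it was 0.92 and passed (limma adjusted p = 0.048). Albumin is made by hepatocytes. The part of hepatocyte RNA in the Cxcr4 values was not tested.

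**Figure D2:**
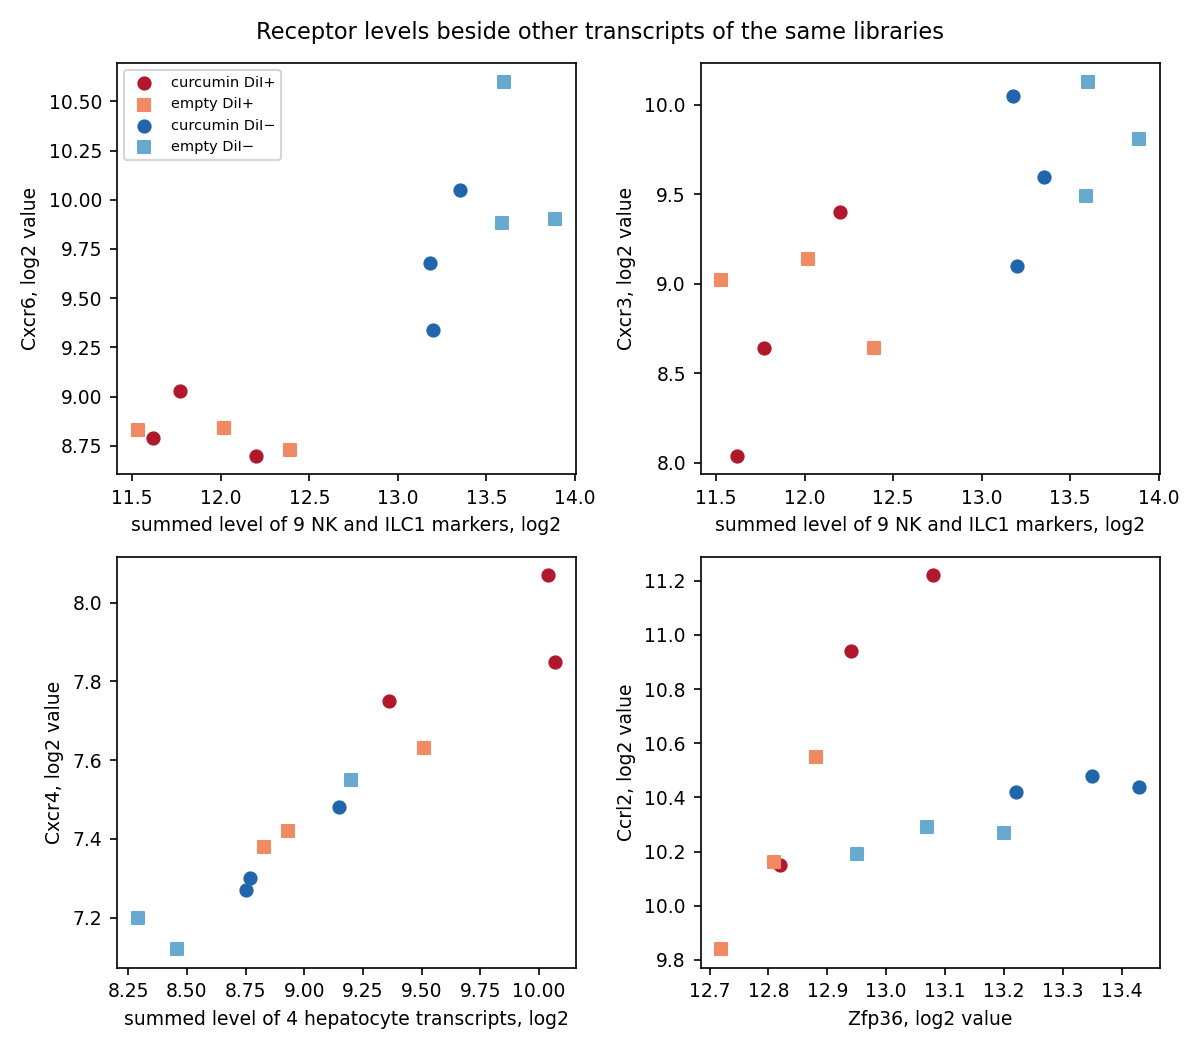
Log2 values of Cxcr6, Cxcr3, Cxcr4 and Ccrl2 (vertical axes) against the log2 summed level of 9 NK and ILC1 markers, the same, that of 4 hepatocyte transcripts and the log2 value of Zfp36 (horizontal axes); each point is 1 library, with circles for curcumin and squares for empty liposomes. Cxcr6 and the NK and ILC1 level separate the gates. Inside them r is -0.51 over the DiI-positive libraries, where Cxcr6 spans only 8.70 to 9.03, and 0.49 over the DiI-negative ones. Cxcr4 and the hepatocyte level, which is mostly Alb, lie along 1 line in both gates. Ccrl2 and Zfp36 follow a separate line in each gate.

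The remaining 4 receptors did not pass the test between the gates. Ccr6 values were 7.03, 8.99 and 8.07 after curcumin and 8.13, 8.14 and 7.87 after empty liposomes in DiI-positive cells. In DiI-negative cells Ccr6 values were 8.13, 7.98 and 7.32 after curcumin and 7.46, 7.44 and 7.78 after empty liposomes. The first and second curcumin DiI-positive libraries were the lowest and the highest of all 12, nearly 2 log2 units apart, and the difference after curcumin liposomes was 0.21 (95% interval -0.63 to 1.06). After empty liposomes the 3 DiI-positive libraries lay above the 3 DiI-negative ones, but the difference of 0.49 (SE 0.39, 95% interval -0.36 to 1.34) had a limma adjusted p of 0.57. B cells also carry CCR6. The summed B cell level had r = 0.04 with Ccr6 over the DiI-positive and r = 0.63 over the DiI-negative libraries. For the other cell type lists, r ran from -0.67 (neutrophil) to 0.27 (NK and ILC1) over the DiI-positive libraries. Over the DiI-negative ones it ran from -0.64 (Kupffer cell) to 0.68 (monocyte).

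Ccr1, the receptor with the highest level of the 7, had 11.17, 10.52 and 10.75 in curcumin and 11.03, 10.73 and 11.15 in empty DiI-positive libraries. It had 10.98, 11.06 and 10.79 in curcumin and 11.34, 11.44 and 10.93 in empty DiI-negative libraries, and all 4 groups overlapped. It averaged 10.81 ± 0.33 in curcumin DiI-positive, 10.97 ± 0.22 in empty DiI-positive, 10.94 ± 0.14 in curcumin DiI-negative and 11.24 ± 0.27 in empty DiI-negative libraries (SD, n = 3 each). The gate difference over both liposomes was -0.20 (SE 0.13, limma adjusted p = 0.37). Neutrophils carry CCR1 too. The summed level of 5 neutrophil transcripts had r = 0.85 with Ccr1 over the DiI-positive and r = 0.49 over the DiI-negative libraries. Without the third curcumin libraries these were 0.86 and -0.12. For the other cell type lists, r with Ccr1 ran from -0.30 (cDC1) to 0.24 (T cell) over the 6 DiI-positive libraries. Over the 6 DiI-negative ones it ran from -0.85 (plasmacytoid dendritic cell) to 0.73 (cDC2). The part of any cell type in the Ccr1 values was not tested.

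The chemerin pair showed no gate difference past the threshold. Ccrl2, the presenting receptor, averaged 10.77 ± 0.56 in curcumin DiI-positive, 10.18 ± 0.36 in empty DiI-positive, 10.45 ± 0.031 in curcumin DiI-negative and 10.25 ± 0.054 in empty DiI-negative libraries (SD, n = 3 each). Its DiI-positive libraries spanned 9.84 to 11.22 and its DiI-negative libraries 10.19 to 10.48, so its spread sat in the DiI-positive gate. Over both liposomes the gate difference was 0.13 (SE 0.17, limma adjusted p = 0.68). Cmklr1, the signalling receptor, averaged 7.29 ± 0.091 in curcumin DiI-positive, 7.01 ± 0.14 in empty DiI-positive, 6.91 ± 0.37 in curcumin DiI-negative and 6.82 ± 0.36 in empty DiI-negative libraries (SD, n = 3 each). Its gate difference over both liposomes was 0.28 (SE 0.15, limma adjusted p = 0.25), and its interval of -0.04 to 0.61 takes in 0. Rarres2, which encodes chemerin itself, differed by 0.18 between the gates (SE 0.11, limma adjusted p = 0.34). Cmklr1 overlaps a gene on the opposite strand, Gm15736, with 0 shared exonic bases and a mean log2 value of 2.54.

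Counted together, 0 of the 7 receptors passed limma's test after curcumin liposomes, where 1.67% of tested genes fell and 1.41% rose; at an unadjusted p under 0.05 there were 3 of the 7 (Cxcr6, Cxcr3 and Cxcr4) and 18.2% of tested genes. After empty liposomes 1 of the 7 fell and 0 rose, where 1.62% of tested genes fell and 1.32% rose. Over both liposomes 2 of the 7 fell and 0 rose, where 6.56% of tested genes fell and 5.54% rose. Groups that did not overlap were seen for 2 of the 7 after curcumin liposomes, where 20.6% of tested genes had such groups, and for 3 of the 7 after empty liposomes, where 26.9% had. Over all 6 against 6 libraries, 1 of the 7 had gates that did not overlap, Cxcr6, where 6.04% of tested genes had. The median difference of the 7 was 0.21 after curcumin liposomes, -0.06 after empty liposomes and 0.13 over both, beside medians of -0.003, 0.004 and 0.005 for all tested genes.

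**Figure D3:**
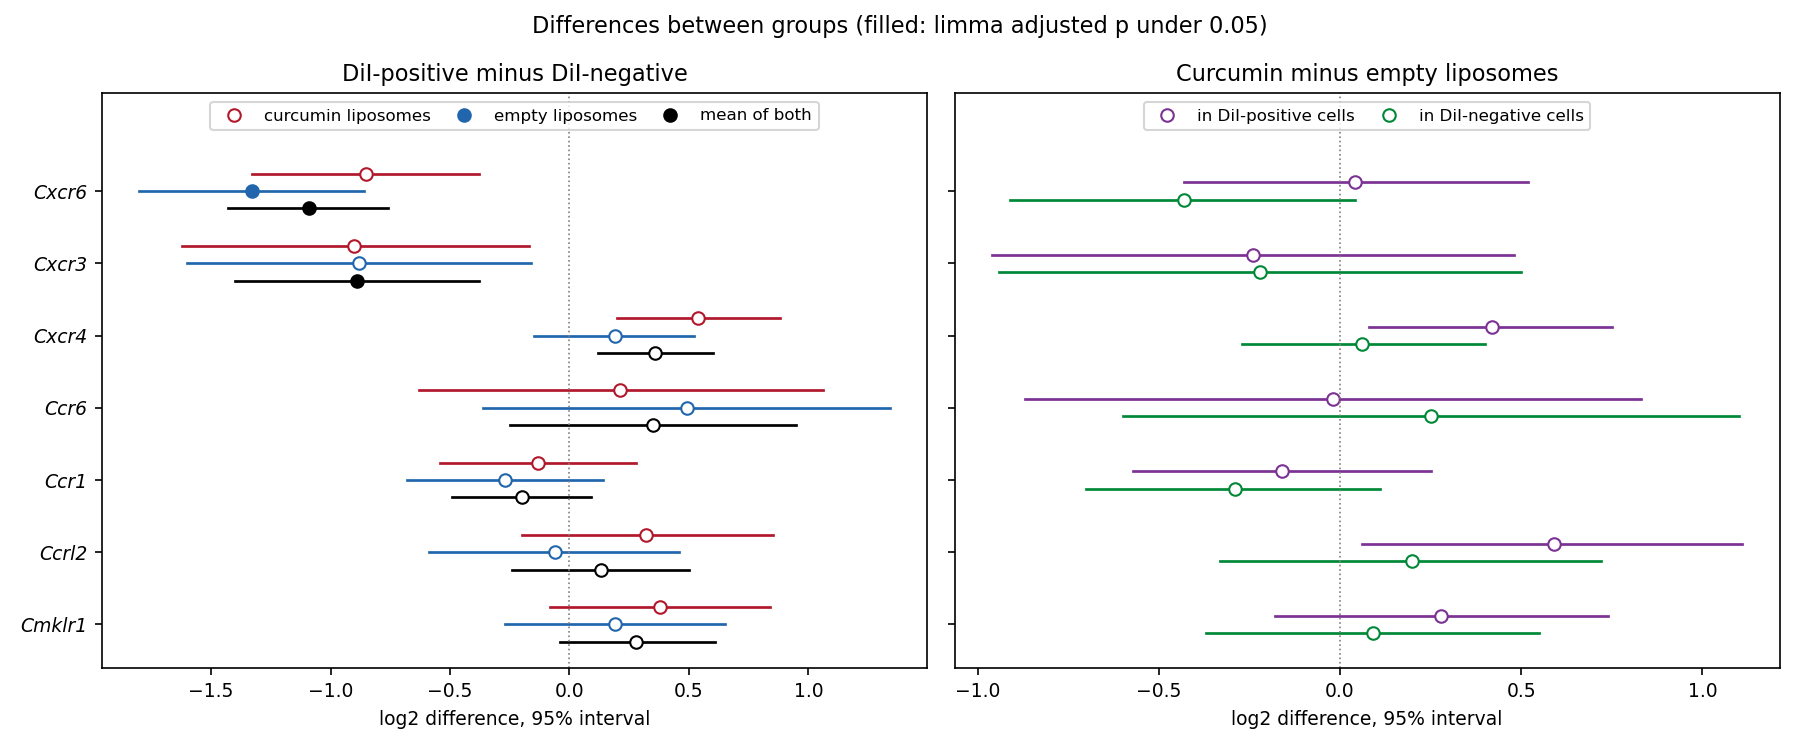
Log2 differences (horizontal axes) of the 7 receptors with 95% intervals, DiI-positive minus DiI-negative cells at left and curcumin minus empty liposomes at right; filled circles passed limma's adjusted p of 0.05. Filled circles appear for Cxcr6 and Cxcr3 in the left panel, and there are none in the right panel.

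The second comparison was of curcumin-loaded against empty liposomes. In DiI-positive cells 0 of the 7 receptors passed limma's test, and 0% of tested genes did. At an unadjusted p under 0.05 there were 2 of the 7 (Cxcr4 and Ccrl2) and 1165 genes in all, or 8.19%. Ccrl2 values were 10.94, 10.15 and 11.22 after curcumin liposomes and 10.55, 10.16 and 9.84 after empty liposomes. The groups overlapped, and the difference of 0.59 (SE 0.24, 95% interval 0.06 to 1.11) had a limma adjusted p of 0.57. Without the third curcumin libraries the difference of Ccrl2 was 0.36 (adjusted p = 0.65). The summed plasmacytoid dendritic cell level had r = 0.83 with Ccrl2 over the 6 DiI-positive and r = 0.57 over the 6 DiI-negative libraries. Those values were 0.63 and 0.72 without the third curcumin libraries. For the other cell type lists, r ran from -0.62 (B cell) to 0.57 (cDC1) over the DiI-positive libraries. Over the DiI-negative ones it ran from -0.95 (NK and ILC1) to 0.51 (hepatocyte). Siglech, at 5.79 to 11.48, lay below the summed plasmacytoid level of 12.40 to 13.61. The part of any cell type in the Ccrl2 values was not tested. Cxcr4 was higher after curcumin liposomes in every DiI-positive library, 7.89 ± 0.17 after curcumin and 7.47 ± 0.13 after empty liposomes (SD, n = 3 each). Its difference of 0.42 (SE 0.15, 95% interval 0.08 to 0.75) had a limma adjusted p of 0.54, and Alb differed by 0.95 in the same comparison (adjusted p = 0.54). Cmklr1 groups did not overlap either, with 7.29, 7.38 and 7.20 after curcumin and 7.16, 6.99 and 6.87 after empty liposomes. So 2 of the 7 receptors had groups that did not overlap, where 10.0% of tested genes had. Cxcr6 differed by 0.04 (SE 0.22, 95% interval -0.43 to 0.52) in these cells, and Ccr6 by -0.02 (SE 0.39, 95% interval -0.87 to 0.83). The interval of Cxcr3 ran from -0.96 to 0.48, so for Ccr6 and Cxcr3 sizeable differences in both directions lie within the intervals.

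In DiI-negative cells 0 of the 7 receptors and 0% of tested genes passed limma's test between curcumin and empty liposomes. At an unadjusted p under 0.05 there were 0 of the 7 and 469 genes in all, or 3.30%. Cxcr6 had the difference largest in size among the 7, -0.43 (SE 0.22, 95% interval -0.91 to 0.04, limma adjusted p = 1). Ccrl2 had groups that did not overlap, with 10.44, 10.48 and 10.42 after curcumin and 10.19, 10.29 and 10.27 after empty liposomes, where 11.2% of tested genes had such groups. By the same limma fit, the difference of the curcumin effects between the gates passed for 0 of the 7 and for 0% of tested genes, with 527 genes (3.70%) at an unadjusted p under 0.05. Among the 7 it ran from -0.27 for Ccr6 to 0.48 for Cxcr6.

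The ligands of these receptors were compared between the gates. Of 11 listed ligands 9 were tested; Ccl20, the ligand of CCR6, is listed at 0 in all 12 libraries, and Cxcl12, the ligand of CXCR4, was under the filter. Over both liposomes 1 of the 9 rose and 1 fell, where 5.54% of tested genes rose and 6.56% fell, with a median of -0.29 beside 0.005 for all tested genes. With the third curcumin libraries left out, 1 rose and 4 fell (Ccl5, Ccl3, Ccl9 and Ccl6). In that fit 834 of 14227 tested genes rose and 1081 fell. Ccl5, a ligand of CCR1, averaged 10.47 in DiI-positive cells and 11.83 in DiI-negative cells, and fell by 1.36 (SE 0.14, limma adjusted p = 0.00028). It fell under each liposome, by 1.25 after curcumin (adjusted p = 0.0083) and by 1.46 after empty liposomes (adjusted p = 0.0047). NK cells and T cells are known makers of CCL5, and the NK and ILC1 levels above moved the same way; their part was not tested. Ccl7, another CCR1 ligand, averaged 6.14 in DiI-positive cells and 5.73 in DiI-negative cells, and rose by 0.41 (SE 0.10, limma adjusted p = 0.019). Ccl3 differed by -0.56 (limma adjusted p = 0.054), and by -0.80 without the third curcumin libraries (limma adjusted p = 0.00023). Cxcl16, the ligand of CXCR6, averaged 12.97 in DiI-positive cells and 12.79 in DiI-negative cells, and differed by 0.18 (SE 0.11, limma adjusted p = 0.36). Cxcl9 and Cxcl10, the ligands of CXCR3, differed by 0.17 and -0.32 and did not pass. Of the tested ligands 0 passed between curcumin and empty liposomes in either gate.

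Among the other receptors of the family, Cxcr5 and Ccr7 were higher in DiI-positive cells and Ccr2 was lower. Of 17 listed receptors 10 were tested; Ccr4 is listed at 0 in all libraries, and Ccr8, Ccr10, Cxcr1, Ackr1, Ackr3 and Gpr1 were under the filter. Over both liposomes 2 of the 10 rose and 1 fell, where 5.54% of tested genes rose and 6.56% fell, with a median of -0.25 beside 0.005 for all tested genes. Leaving out the third curcumin libraries, 2 rose and 3 fell, Xcr1 (-1.34, limma adjusted p = 0.018) and Cx3cr1 (-0.36, limma adjusted p = 0.037) besides Ccr2. Among all 14227 tested genes 834 rose and 1081 fell in that fit. Cxcr5, the CXCL13 receptor of B cells and follicular T cells, averaged 12.09 in DiI-positive cells and 10.76 in DiI-negative cells, and rose by 1.32 (SE 0.18, limma adjusted p = 0.0013). Ccr7, which leads mature dendritic cells and lymphocytes to lymph nodes, averaged 12.20 in DiI-positive cells and 11.14 in DiI-negative cells, and rose by 1.06 (SE 0.14, limma adjusted p = 0.0011). Both also rose under each liposome alone, Cxcr5 by 1.47 after curcumin and 1.18 after empty, Ccr7 by 1.10 after curcumin and 1.02 after empty liposomes. All 7 listed B cell transcripts rose over both liposomes, and their part in the values of Cxcr5 and Ccr7 was not tested. Ccr2, the receptor of inflammatory monocytes, averaged 13.82 in DiI-positive cells and 14.49 in DiI-negative cells, and fell by 0.66 (SE 0.08, limma adjusted p = 0.00058), and 5 of the 6 listed monocyte transcripts, Ccr2 among them, fell too.

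**Figure D4:**
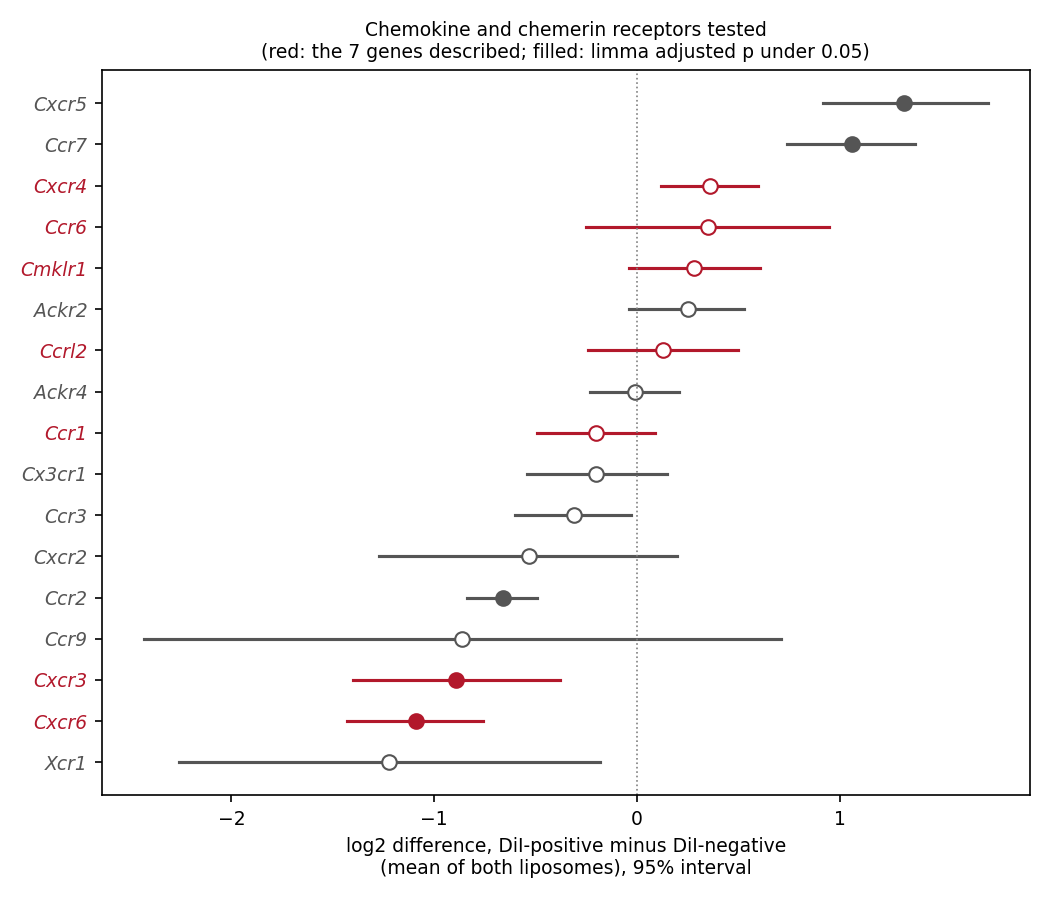
Log2 difference between DiI-positive and DiI-negative cells (horizontal axis, mean of both liposomes) with 95% intervals for the 17 tested chemokine and chemerin receptors (vertical axis), the 7 described here in red; filled circles passed limma's adjusted p of 0.05. Cxcr5 and Ccr7 lie at the top with 1.32 and 1.06, and Cxcr3 and Cxcr6 near the bottom with -0.89 and -1.09.

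Cxcr6 and Ccr1 lie near other receptor genes on mouse chromosome 9, where Ccr9, Cxcr6, Xcr1, Ccr1, Ccr3 and Ccr2 follow in this order on GRCm38. Ccr9 ends 22.1 kb before Cxcr6, and Xcr1 begins 40.6 kb after it. Ccr1 lies at 9:123962124-123968692 on the minus strand. Of these 6 genes Cxcr6 and Ccr2 fell over both liposomes, and Ccr1, Ccr3, Ccr9 and Xcr1 did not pass with all 12 libraries, with differences of -0.20, -0.31, -0.86 and -1.22. Ccrl2 is on the same chromosome at 9:111054486-111057519, far from those genes. Cxcr3 is at X:101731535-101734269, Cxcr4 at 1:128588199-128592293, Ccr6 at 17:8236043-8257141 and Cmklr1 at 5:113612354-113650426.

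The signalling machinery behind these receptors was compared as well. All 22 listed signalling genes were tested, and over both liposomes 6 fell and 1 rose, where 6.56% of tested genes fell and 5.54% rose, with a median of -0.23 beside 0.005 for all tested genes. There were 8 that fell and 0 that rose without the third curcumin libraries, where 1081 of 14227 tested genes fell and 834 rose. Gnb1, a beta subunit of G proteins, fell by 0.57 (SE 0.08, limma adjusted p = 0.0013), and Gnai2, the main inhibitory alpha subunit of leukocytes, fell by 0.30 (SE 0.06, adjusted p = 0.0075). Grk3, a kinase that switches off activated receptors, fell by 0.44 (adjusted p = 0.036). Of the regulators that speed up the G protein cycle, Rgs18 fell by 0.95 (adjusted p = 0.0013), Rgs16 by 0.45 (adjusted p = 0.012) and Rgs2 by 0.33 (adjusted p = 0.013). Rgs1, which dampens chemokine responses of B cells, rose by 0.55 (adjusted p = 0.031), and differed by 0.50 without the third curcumin libraries (adjusted p = 0.059). Under single liposomes, Rgs18 fell after both, Gnb1 after curcumin liposomes (-0.73, adjusted p = 0.0087) and Rgs2 after empty liposomes (-0.47, adjusted p = 0.034).

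The receptors varied among themselves in different ways. Over the 6 DiI-positive libraries Ccr1 and Ccr6 ran opposite, with r = -0.83, and over the 6 DiI-negative libraries with r = -0.25. Cxcr3 and Cxcr6, which both fell between the gates, had r = -0.21 over the DiI-positive libraries and r = 0.68 over the DiI-negative ones. Cxcr4 and Cmklr1 had r = 0.69 and r = 0.68 in the 2 gates. The chemerin pair Ccrl2 and Cmklr1 had r = 0.51 over the DiI-positive libraries and r = 0.43 over the DiI-negative ones. These are descriptions over 6 libraries each, which share their sort and liposome groups.

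The genes whose values followed each receptor most closely within both gates were picked from 10096 protein-coding genes, by the smaller of the r over the 6 DiI-positive and the r over the 6 DiI-negative libraries. With that many genes and 6 libraries, high values arise for every receptor. For Ccrl2 they were Zfp36 (r = 0.98 over the DiI-positive and 0.89 over the DiI-negative libraries), Cdkn1a (0.87 and 0.90) and Nfkbia (0.86 and 0.96). Zfp36 encodes the mRNA-destabilising protein tristetraprolin, Cdkn1a the cell-cycle inhibitor p21, and Nfkbia the NF-kappaB inhibitor IkappaB-alpha. All 3 of them fell in DiI-positive cells over both liposomes, Zfp36 by 0.33, Cdkn1a by 0.46 and Nfkbia by 0.31 (limma adjusted p of 0.013, 0.011 and 0.014), whereas Ccrl2 did not pass. For Cxcr4 they were Alb (0.91 and 0.95), Cdc27 (0.91 and 0.89) and Cbr1 (0.88 and 0.96), in the same order of gates. For Cxcr6 they were Kdelr1 (0.94 and 0.98), Rere (0.92 and 0.93) and Ccdc34 (0.89 and 0.95). For Cxcr3 they were Pkn3 (0.94 and 0.94), Tbrg1 (0.91 and 0.92) and Kidins220 (0.89 and 0.92). Of these 6 genes 0 passed between the gates, unlike Cxcr6 and Cxcr3. For Ccr6 they were Stxbp6 (0.88 and 0.95), Shkbp1 (0.86 and 0.93) and Lrpap1 (0.97 and 0.86). For Ccr1 they were Txk (0.85 and 0.90), Cbx8 (0.84 and 0.87) and Fis1 (0.96 and 0.83), and for Cmklr1 they were Tmem50a (0.89 and 0.94), Glipr1 (0.88 and 0.89) and Spdya (0.88 and 0.87).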

How the data were processed

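Per the labels' protocols, RNA of the sorted cells was amplified as cDNA by a SMARTer kit for small inputs and turned into Nextera XT libraries. The authors deposited 1 log2 value per gene and library. The submitters' processing notes name STAR 2.4.0d, DESeq2 1.8.1 and the build GRCm38. The strand setting of the count was not given in the sources used here, nor was the transform. The log2 values, from -3.62 to 19.37, resemble a shrunken scale, on which fold changes of low genes are understated. The labels hold 24 records, 2 for each of 12 library codes, and each code was counted as 1 library. Codes were read against the series design (CL for curcumin and EL for empty liposomes, P for cells with dye and N for cells without).

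From these values limma 3.58.1 in R 4.3.3 fitted a mean per group over all 12 libraries (8 residual and 3.51 prior degrees of freedom, prior variance following the mean). It tested the 14227 genes with a mean of at least 4, with Benjamini-Hochberg adjusted p under 0.05 over all of them. The fit was tested on simulated data. GENCODE M21 gave symbols and positions, and RefSeq the start regions. Summed levels add the unlogged values of a list. Named were all 7 members, list genes past the threshold (the smallest p up to 3 where fewer passed), the 3 genes most like each member in both gates and the gate genes; other genes were named after their values were seen. One further receptor gene is not reported here. Members and lists were chosen with earlier results of these data known. Alternatives changed the filter, scaling, weights, prior, libraries and replicate block.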

Additional observations from a re-analysis of the deposited data

How the results depend on the processing

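Over 22 alternative settings, 851 of 896 recomputed differences of the 7 receptors kept their direction and side of the threshold. Leaving out a library outside a comparison cannot move its difference and changes only the pooled spread, so part of this sameness was fixed in advance. Cxcr6 passed after empty liposomes in 23 of 23 settings, the reported one included (-1.45 to -1.09, adjusted p 0.0066 to 0.042), and over both liposomes in 22 of 22. Cxcr3 passed over both in 14 of 22, and without a filter its adjusted p was 0.056. Cxcr4 passed over both in 5 of 22 (adjusted p 0.032 to 0.12).

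Counts of genes passing moved more. After curcumin liposomes 437 became 248 without a filter, 40 with only the libraries compared, 706 without the third curcumin libraries (a setting chosen after seeing the data) and 114 to 1088 when 1 library was left out. After empty liposomes 419 became 263 without a filter, 789 with library weights, 666 without the third curcumin libraries and 85 to 659 when 1 library was left out. Without the third curcumin libraries, 3 genes passed between curcumin and empty liposomes in DiI-positive cells (0 to 4 when 1 library was left out) and 1 for the difference of curcumin effects (0 to 2). Of the receptors, 1 passed after curcumin liposomes with a minimum mean of 6 (0 to 1 when 1 library was left out), and 1 over both liposomes without a filter (1 to 3).

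The differences that changed sign had not passed. When 1 library was left out, the gate difference ran from -0.31 to 0.02 for Ccr1 and from -0.26 to 0.72 for Ccr6 after curcumin liposomes (-0.05 without the third curcumin libraries for Ccr6), and from -0.25 to 0.11 for Ccrl2 and from -0.0069 to 0.34 for Cmklr1 after empty liposomes. The curcumin difference in DiI-positive cells ran from -0.50 to 0.48 for Ccr6 (0.0028 with quantile normalization, 0.15 with library weights), from -0.59 to 0.09 for Cxcr3 and from -0.05 to 0.11 for Cxcr6. In DiI-negative cells it ran from -0.46 to 0.02 for Cxcr3, from -0.02 to 0.19 for Cxcr4 and from -0.11 to 0.26 for Cmklr1. The difference of curcumin effects ran from -0.04 to 0.29 for Ccr1, from -0.75 to 0.23 for Ccr6 and from -0.37 to 0.31 for Cxcr3 (0.002 with quantile normalization, 0.04 with library weights). The cause was not tested.

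The labels do not say what a replicate number shares. Deviations of same-numbered libraries correlated from -0.114 to 0.328 over all pairs of groups. Between the gates of 1 liposome all 6 were positive (0.00372 to 0.328), 1 of them above 0.1. Of the 12 differently numbered pairs there, 4 were positive (-0.245 to 0.197). Deviations within a group add up to 0, so these sets depend on each other and do not settle whether the numbers are pairs. The main fit took the libraries as independent, and a shared source of same-numbered libraries was not tested. With the number as a replicate block, 407 genes passed after curcumin liposomes, 405 after empty liposomes and 1616 over both, and with a replicate block within each liposome (a fit chosen after seeing the data) 448, 390 and 1555, in the same order. No receptor's call changed in either. A fit to only the libraries compared was not run for the mean of both liposomes or the difference of curcumin effects. Depth is unknown, and precision rests on 3 libraries a group.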

Other observations

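Transcripts of several other cell types differed between the gates beside the 7 receptors. Of 7 listed genes of type 2 conventional dendritic cells (cDC2), 4 fell in DiI-positive cells over both liposomes and 0 rose. Among all tested genes 6.56% fell and 5.54% rose. The cDC2 counts were the same without the third curcumin libraries, where 1081 of 14227 tested genes fell and 834 rose. Cd209a, a lectin of these cells, averaged 12.08 in DiI-positive cells and 14.11 in DiI-negative cells (limma adjusted p = 0.00028), and Clec10a averaged 9.28 in DiI-positive cells and 10.59 in DiI-negative cells (limma adjusted p = 0.00091). All 4 listed basophil transcripts fell, among them Fcer1a, a chain of the high-affinity IgE receptor, which averaged 5.73 in DiI-positive cells and 6.72 in DiI-negative cells (limma adjusted p = 0.003). The 5 listed transcripts of mature dendritic cells did not move one way: Ccr7 rose, 1 fell, and their summed level ran from 12.77 to 13.25 in DiI-positive libraries and from 12.43 to 12.75 in DiI-negative libraries. The one that fell, Ccl22, encodes a chemokine bound by CCR4 and averaged 7.93 in DiI-positive cells and 9.21 in DiI-negative cells (limma adjusted p = 0.0022), while Ccr4 is listed at 0 in all libraries.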
